A study of Homo sapiens with 5 samples.

Results

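Integrins and CD44 are receptors that hold blood cells to matrix and to other cells, and 10 of their genes were followed here: the alpha subunit genes ITGA4, ITGA5, ITGA6, ITGAL and ITGAM, the beta subunit genes ITGB1, ITGB2, ITGB5 and ITGB7, and CD44. They were picked by name, as 10 of the 18417 genes that had a probe of their own on the arrays. Where a gene has several such probes, the one with the highest mean over all 5 arrays stands for it; each of the 10 genes had 1 probe. The arrays were hybridised with total RNA of RS4.11, a human leukemia cell line with a rearranged MLL gene. On 3 arrays the cells had been kept for 20 h with 10 uM SB216763, a compound that blocks the kinase GSK-3, and on 2 control arrays with its solvent, DMSO. All groups were of this 1 line, grown in culture, and no label says that the arrays came from separate cultures, so each p-value reflects the spread from array to array, which may be technical only.

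An integrin is a heterodimer of an alpha and a beta chain, and the partner decides the ligand. ITGA4 with ITGB1 binds VCAM1 and fibronectin and with ITGB7 binds MADCAM1, the addressin of gut vessels; ITGA5 with ITGB1 is the classical fibronectin receptor, ITGA6 pairs with ITGB1 or ITGB4 to bind laminin, ITGB5 pairs with ITGAV to bind vitronectin, and ITGAL and ITGAM pair with the leukocyte chain ITGB2 to bind ICAM1 and, for ITGAM, complement fragments. Talin and kindlin proteins switch integrins on from inside the cell. CD44 binds hyaluronan outside the cell and links to actin through ezrin, radixin and moesin, and it is often listed among Wnt target genes.

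Values are log2 expression values as deposited, and every difference is SB216763 minus control on that scale, from limma fitted to all 18417 genes, with n = 3 SB216763 and n = 2 control arrays. The array medians lay between 6.77 and 6.84. The background of an array was the 95th percentile of its 341 olfactory receptor genes, between 5.98 and 6.19, and all 10 genes were above it on all 5 arrays. The labels name no lineage for the line. Of 11 measured marker genes of B cell precursors, 4 were above background on all arrays (CD79B, PAX5, IGLL1 and CD72), and VPREB1, CD22, CD24, DNTT and RAG1 were above it on none. Of 13 measured myeloid markers 12 were above background on all arrays. The same held for 3 of 10 T and NK cell markers, 3 of 9 megakaryocyte and erythroid markers and 5 of 13 markers of fibroblasts, endothelium and epithelium. Of the 12 myeloid markers, CD14, MPO, S100A8 and S100A9 averaged 6.30 to 6.68 over all arrays, below every array median. The others averaged 6.77 to 12.39. Of the 4 B cell precursor markers, CD79B, PAX5 and CD72 averaged 6.62 to 6.70 and IGLL1 8.23.

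The 10 genes split into 3 sets. ITGB7 rose 2.16-fold, while ITGB5, ITGA6, ITGA5, ITGA4 and CD44 fell, ITGB5 by 2.76-fold and the other 4 by 1.38-fold to 1.78-fold. ITGAL, ITGAM, ITGB1 and ITGB2 did not pass the threshold of an adjusted p of 0.05. So 6 of the 10 genes were called, where 13.1% of all genes were. All genes include dim ones. With those filtered out, 3039 of the 13147 genes left were called, and the same 6 of the 10. By direction, 1 was higher, where 7.21% of all genes were, and 5 were lower, where 5.92% were. The median difference of the 10 genes was -0.26, against 0.0033 over all genes. A change of at least 2-fold was called for ITGB5 and ITGB7 only, 2 of the 10, where 0.69% of all genes reached it. The groups did not overlap for 8 of the 10 genes, as for 41.4% of all genes, the exceptions being ITGAL and ITGB1. The 10 genes were chosen with earlier results of these arrays known, so these counts describe them and support nothing further.

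**Figure D1:**
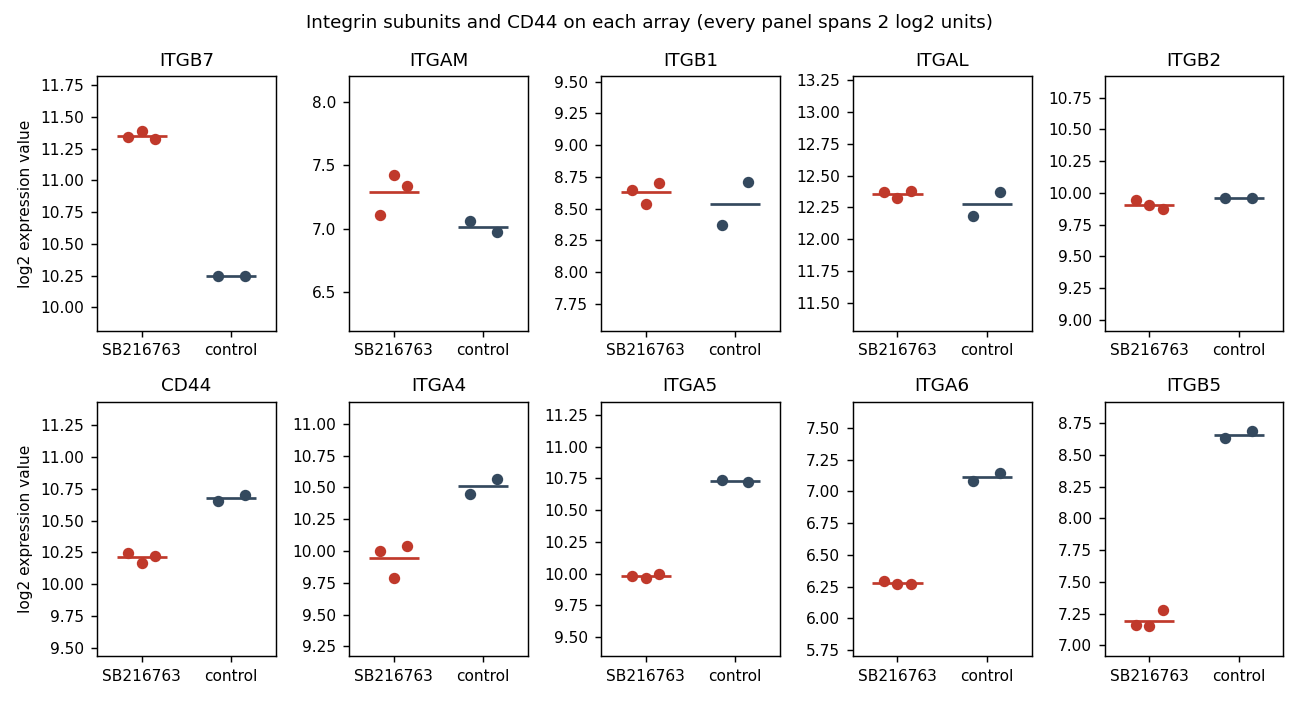
Log2 expression value (y axis, 2 log2 units in every panel) of each gene on the 3 SB216763 arrays (red, left) and the 2 control arrays (dark blue, right); points are arrays and bars are group means. The SB216763 points lie above the control points for ITGB7 and ITGAM and below them for CD44, ITGA4, ITGA5, ITGA6, ITGB5 and, narrowly, ITGB2; ITGAL and ITGB1 overlap.

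Of the beta chains, ITGB5, the vitronectin-binding partner of ITGAV (Entrez gene 3693), fell furthest. Its values were 7.16, 7.15 and 7.28 on the SB216763 arrays, against 8.63 and 8.69 on the control arrays. The groups were far apart relative to their spread, with an SD of 0.07 among SB216763 arrays and 0.04 between control arrays. Its difference was -1.46 (SE 0.08, 95% interval -1.65 to -1.27, adjusted p = 0.000340 by limma), and 6 of the 18417 genes had a larger fitted decrease. In bulk RNA, fewer cells carrying a transcript and less of it per cell cannot be told apart.

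ITGB7, the leukocyte beta chain that takes ITGA4 to mucosal vessels (Entrez gene 3695), was the 1 gene of the 10 that rose. It measured 11.34, 11.39 and 11.32 on the SB216763 arrays, against 10.24 and 10.24 on the control arrays. Both groups were tight, so its difference of 1.11 (SE 0.08, 95% interval 0.93 to 1.28, adjusted p = 0.000466 by limma) was many times the spread between arrays. It ranked 48 of 18417 by increase. Without control replicate 1 and without control replicate 2 the differences were -1.49 and -1.44 for ITGB5 and 1.11 in both cases for ITGB7. The calls of both genes were lost there, as were almost all calls over the 18417 genes.

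The DNA around the start sites of these genes is shown because both beta chains moved most and in opposite directions, and that of ITGA6 and CD44 because they fell with ITGB5. ITGA5 and ITGA4 fell as well, but their windows are not printed. Sequences are RefSeq promoter windows of GRCh38.p14, each of 300 bases around an annotated start; 8 of the 10 genes matched, with 12 windows, and ITGAL and ITGB2 had none. Where a gene had several windows, the most GC-rich is printed. Capitals mark matches, on either strand, to the GC box GGGCGG, the TATA box TATAAA, the E box CACGTG, the ETS site CCGGAA, the PU.1 core GAGGAA, the RUNX site TGTGGT and the TCF/LEF site CTTTGAA, which was also counted where its last pair of letters was AT, TA or TT.
ITGB7, chr12:53207202-53207501, minus strand: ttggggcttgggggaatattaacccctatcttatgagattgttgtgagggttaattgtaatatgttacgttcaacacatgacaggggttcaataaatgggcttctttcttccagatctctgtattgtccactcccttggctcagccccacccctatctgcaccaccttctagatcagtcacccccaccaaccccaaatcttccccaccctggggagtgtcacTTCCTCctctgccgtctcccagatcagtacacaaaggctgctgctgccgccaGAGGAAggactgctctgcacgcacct
ITGB5, chr3:124887316-124887615, minus strand: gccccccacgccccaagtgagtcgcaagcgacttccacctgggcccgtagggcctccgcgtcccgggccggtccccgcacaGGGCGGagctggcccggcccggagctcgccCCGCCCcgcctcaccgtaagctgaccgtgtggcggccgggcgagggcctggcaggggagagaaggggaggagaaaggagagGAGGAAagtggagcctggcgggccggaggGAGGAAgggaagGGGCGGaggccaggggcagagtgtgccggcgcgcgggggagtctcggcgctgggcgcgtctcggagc
ITGA6, chr2:172427336-172427635, plus strand: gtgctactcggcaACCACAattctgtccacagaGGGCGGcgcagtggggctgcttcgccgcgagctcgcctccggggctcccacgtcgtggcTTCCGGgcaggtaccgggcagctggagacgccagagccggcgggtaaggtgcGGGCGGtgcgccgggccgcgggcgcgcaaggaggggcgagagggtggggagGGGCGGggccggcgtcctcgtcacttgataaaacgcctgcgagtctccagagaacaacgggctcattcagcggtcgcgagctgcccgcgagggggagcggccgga
CD44, chr11:35138921-35139220, plus strand: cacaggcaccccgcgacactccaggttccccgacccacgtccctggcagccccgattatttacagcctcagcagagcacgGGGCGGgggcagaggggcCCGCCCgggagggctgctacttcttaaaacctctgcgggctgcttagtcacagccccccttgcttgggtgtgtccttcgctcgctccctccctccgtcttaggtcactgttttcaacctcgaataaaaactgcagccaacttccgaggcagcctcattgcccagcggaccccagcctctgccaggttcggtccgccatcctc

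The ITGB7 window held 2 PU.1 cores and 0 GC boxes at a GC content of 51.7%. The ITGB5 window, at 75.7% GC, held 3 GC boxes and 2 PU.1 cores, and the other ITGB5 windows each held 2 GC boxes. The ITGA6 window, at 72% GC, held 3 GC boxes, 1 ETS site and 1 RUNX site, and that RUNX site also lies in the overlapping second ITGA6 window. The CD44 window held 2 GC boxes and no match to the TCF/LEF site. Of the genes that fell but are not printed, ITGA5 had 1 GC box in its window and ITGA4 no match of any kind. Over the 12 windows, 9 held a GC box, 4 a PU.1 core, 3 an ETS site, 3 a RUNX site, 2 a TATA box, 1 an E box and 1, that of ITGAM, a TCF/LEF site. Of all 35116 windows in the table, 45.0% held a GC box, 27.9% a PU.1 core, 17.2% an ETS site, 13.1% a RUNX site, 11.5% a TATA box, 7.26% an E box and 13.8% a TCF/LEF site. Some of these letters overlap, as PU.1 core and RUNX site do in the ITGAM window, and a match describes the letters only.

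Among the alpha chains, 3 of 5 fell. ITGA6, the laminin receptor chain (Entrez gene 3655), had 6.29, 6.27 and 6.27 on the SB216763 arrays, against 7.08 and 7.14 on the control arrays. Its SB216763 values stood just above the backgrounds of those arrays, which were 6.12, 6.15 and 5.98. The fitted difference was -0.84 (SE 0.07, adjusted p = 0.000935 by limma). ITGA5, the fibronectin receptor chain (Entrez gene 3678), had 9.98, 9.97 and 9.99 on the SB216763 arrays, against 10.74 and 10.72 on the control arrays. The SD was 0.01 in either group, and the difference was -0.75 (SE 0.07, adjusted p = 0.00133). ITGA4, the chain shared by the VCAM1 and MADCAM1 receptors (Entrez gene 3676), had 10.00, 9.79 and 10.04 on the SB216763 arrays, against 10.45 and 10.56 on the control arrays. Replicate 2 of SB216763 was its lowest array, and the difference of -0.57 (SE 0.10, adjusted p = 0.0114) was -0.49 without that array.

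CD44, the hyaluronan receptor (Entrez gene 960), had 10.24, 10.17 and 10.22 on the SB216763 arrays, against 10.65 and 10.70 on the control arrays. The groups were separate and evenly spread, with a difference of -0.46 (SE 0.08, adjusted p = 0.00848 by limma). The calls of these 4 genes were lost without either control array, as were almost all calls over the 18417 genes. Without control replicate 1 the adjusted p by limma was 0.0572 for ITGA6, 0.0602 for ITGA5, 0.115 for ITGA4 and 0.0885 for CD44. Without control replicate 2 it was 0.0593 for ITGA6, 0.0598 for ITGA5, 0.139 for ITGA4 and 0.0911 for CD44. The differences themselves kept their sign and moved most for ITGA4, which had -0.62 without control replicate 1 and -0.51 without control replicate 2. In the same order they were -0.87 and -0.81 for ITGA6, -0.74 and -0.76 for ITGA5, and -0.49 and -0.44 for CD44.

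**Figure D2:**
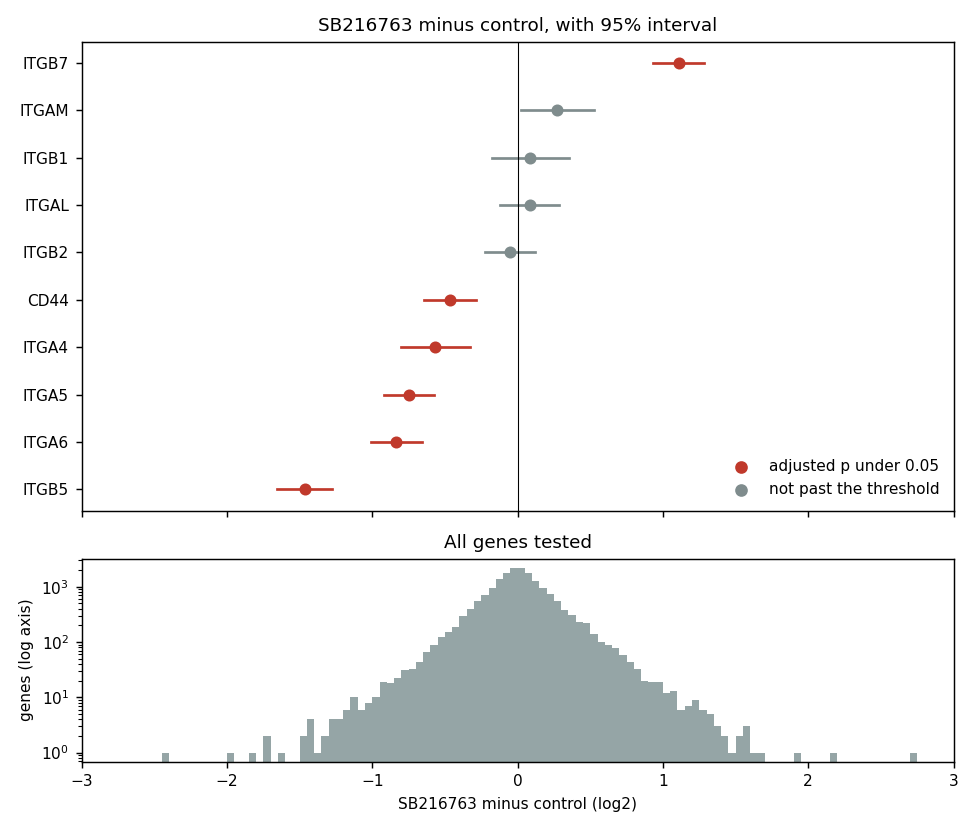
Top, SB216763 minus control difference (log2, x axis) of each gene with its 95% interval from limma, red where the adjusted p was under 0.05; bottom, the same differences for all 18417 genes (number of genes, log axis). ITGB7 at 1.11 and ITGB5 at -1.46 lie in the outer tails of the distribution, and the intervals of ITGB1, ITGAL and ITGB2 cross 0.

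The remaining 4 genes, with the leukocyte beta chain ITGB2 and its alpha partners among them, did not pass. ITGB2 (Entrez gene 3689) had 9.94, 9.91 and 9.87 on the SB216763 arrays, against 9.96 and 9.96 on the control arrays. The groups did not overlap, but the difference was only -0.05 (SE 0.08, 95% interval -0.23 to 0.12, adjusted p = 0.738 by limma). ITGAL, the LFA-1 alpha chain (Entrez gene 3683), had 12.37, 12.33 and 12.38 on the SB216763 arrays, against 12.18 and 12.37 on the control arrays, a difference of 0.08 (SE 0.09, 95% interval -0.12 to 0.28, adjusted p = 0.636). ITGB1, the partner of ITGA4, ITGA5 and ITGA6 (Entrez gene 3688), had 8.65, 8.54 and 8.70 on the SB216763 arrays, against 8.37 and 8.71 on the control arrays. Its control arrays differed more from each other than the group means did, and the difference was 0.09 (SE 0.11, 95% interval -0.18 to 0.36, adjusted p = 0.710). It was -0.08 without control replicate 1 and 0.26 without control replicate 2, and for ITGAL it was -0.01 and 0.18; for ITGAL it was also -0.04 after quantile normalization.

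ITGAM, the CD11b chain of macrophages and granulocytes (Entrez gene 3684), had 7.11, 7.42 and 7.34 on the SB216763 arrays, against 7.06 and 6.97 on the control arrays. All 3 SB216763 arrays were above both control arrays, replicate 1 by little. The difference was 0.27 (SE 0.11, 95% interval 0.02 to 0.52 by limma), and its adjusted p of 0.155 by limma missed the threshold. With array weights the difference was 0.12. The myeloid markers, none of which was one of the 10 genes, averaged 8.41 to 8.60 on the SB216763 arrays and 8.22 to 8.23 on the control arrays. Where 7.21% of all genes were called higher, 4 of the 13 were. Those were the macrophage glycoprotein CD68, the receptor CSF3R, lysozyme (LYZ) and the adaptor TYROBP, while the other 9 did not pass, with differences from -0.23 for MPO to 0.16 for S100A8, and CD163 was not above background on any array. Of the other marker lists limma called 1 gene each in 3 and 0 in that of megakaryocytes and erythroid cells. Over all genes 13.1% were called, so 1 call in such a short list is near that share. BLNK, a B cell adaptor, was at least 1.53-fold higher with SB216763, neither control array being above background, NKG7, of cytotoxic cells, rose by 0.88, and the keratin KRT18 fell by 0.45, with a second probe at -0.07. The part of these genes in the integrin differences was not tested.

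**Figure D3:**
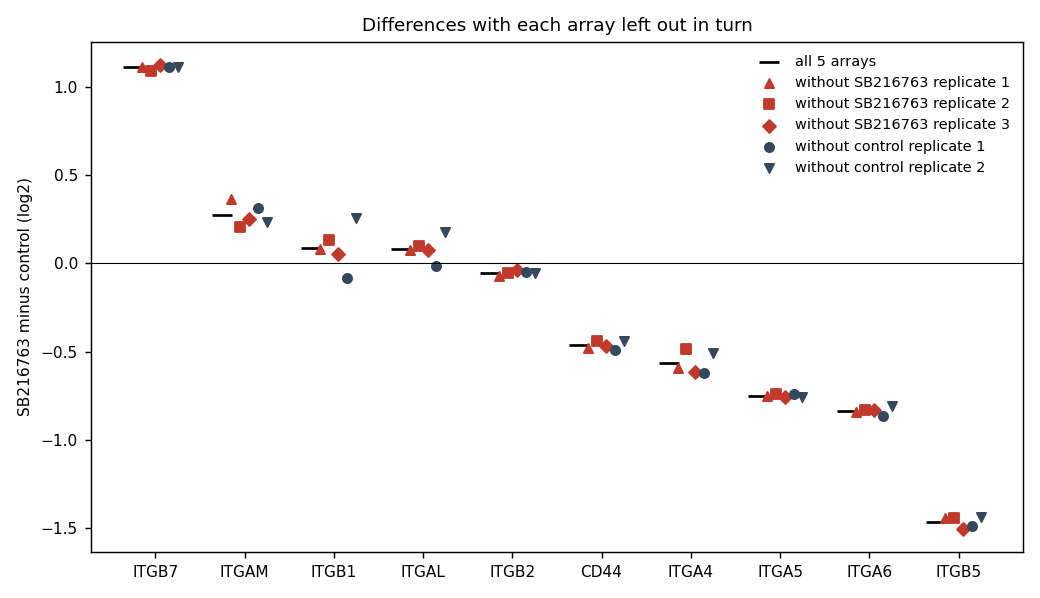
SB216763 minus control difference (log2, y axis) of each gene with all 5 arrays (bar) and with each array left out in turn (symbols; red for a left-out SB216763 array, dark blue for a left-out control array). For the 6 called genes all symbols keep to 1 side of 0, while ITGB1 and ITGAL cross it without control replicate 1.

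The chains of known receptors were also set against each other. Within each array the value of the beta chain was subtracted from that of the alpha chain; since the probes differ, the size of such a gap says nothing of relative abundance, and only its change between groups is read. The gap of ITGA4 to ITGB7 was -1.34, -1.61 and -1.28 on the SB216763 arrays, against 0.21 and 0.32 on the control arrays, a change of -1.67. The gap of ITGA4 to ITGB1 was 1.36, 1.25 and 1.34 on the SB216763 arrays, against 2.08 and 1.85 on the control arrays, a change of -0.65. Relative to ITGA4, both beta chain values were thus higher on the SB216763 arrays, by the larger step for ITGB7. Taken alone, ITGB7 differed by 1.11, ITGA4 by -0.57 and ITGB1 by 0.09, and ITGB1 was not called. The gap to ITGB1 changed by -0.84 for ITGA5 and by -0.92 for ITGA6. For ITGAV against ITGB5 the gap was 1.13, 1.01 and 1.08 on the SB216763 arrays, against -0.67 and -0.66 on the control arrays, a change of 1.74. ITGAV itself had a difference of 0.28 (SE 0.09, adjusted p = 0.0853 by limma), which did not pass. The LFA-1 pair ITGAL and ITGB2 changed by 0.13 and the CD11b pair ITGAM and ITGB2 by 0.32. Each of these changes is the difference of the alpha chain minus that of the beta chain, and none was given a test of its own.

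**Figure D4:**
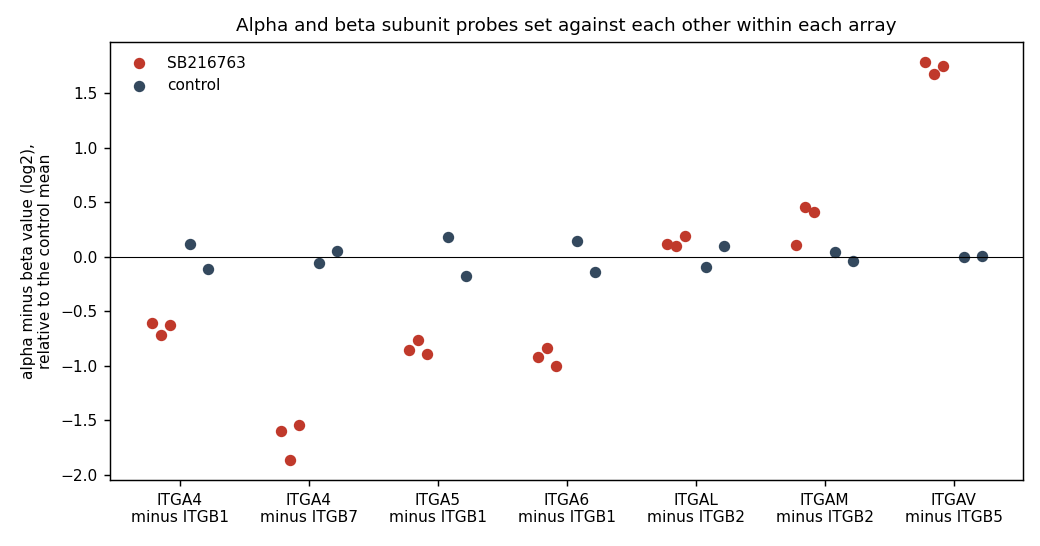
Alpha minus beta value within each array (log2, y axis), set to 0 at the control mean of each pair, for 7 receptor pairs; red points are the 3 SB216763 arrays and dark blue points the 2 control arrays. The SB216763 arrays lie lowest for ITGA4 minus ITGB7, a change of -1.67, and highest for ITGAV minus ITGB5, a change of 1.74.

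The genes whose profile over the 5 arrays was most like that of ITGB5, ITGB7 and ITGA6, the 3 called genes with the largest changes, were found by the Euclidean distance between log2 values centred on each gene's mean. Nearest to ITGB5 were ALDH1A3, a retinaldehyde dehydrogenase, at a distance of 0.12, the microRNA gene MIR221 at 0.14 and the ETS factor ETV4 at 0.20. ALDH1A3 had 8.06, 8.01 and 8.19 on the SB216763 arrays, against 9.42 and 9.48 on the control arrays; its difference of -1.36 was -0.49 for the mean of its probes. Nearest to ITGB7 were the zinc finger gene ZNF581 at 0.06, the lipid transporter ABCA7 at 0.10 and the myeloid marker CD68 at 0.12. CD68 had 11.75, 11.79 and 11.70 on the SB216763 arrays, against 10.74 and 10.74 on the control arrays. Nearest to ITGA6 were MCM2, a subunit of the replicative helicase, at 0.04, UHRF1, which helps copy DNA methylation, at 0.06, and the zinc transporter SLC39A14 at 0.06. The difference of UHRF1 was -0.88, and -0.35 for the mean of its probes. With 2 levels and 5 arrays many genes share such a profile, so the likeness is a description only. All 9 of these genes were called by limma (adjusted p from 0.000430 to 0.00103), and without either control array none of the 9 was.

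Of the other integrin subunits 1 passed the test. Among 16 measured, 8 were above background on all arrays and 5 on none. Of the 16, 1 rose, 0 fell and 15 did not pass, so 6.25% were called, where 13.1% of all genes were. The median difference was 0.00098. The laminin-binding chain ITGA7 rose by 0.45 (SE 0.09, adjusted p = 0.0142 by limma), with 7.77, 7.96 and 7.83 on the SB216763 arrays, against 7.40 and 7.40 on the control arrays. ITGAX, the CD11c chain of dendritic cells and macrophages, had 6.87, 7.27 and 6.95 on the SB216763 arrays, against 6.58 and 6.62 on the control arrays, and its difference of 0.43 (SE 0.12, adjusted p = 0.0615) passed in 4 other settings, among them the one without SB216763 replicate 2. ITGB6, of epithelial cells, was above background on no array. The number called was 4 without SB216763 replicate 2. Without control replicate 1 and without control replicate 2 limma called 0, while 1 and 3 of the 16 had an unadjusted p under 0.05, against 19.6% and 21.5% of all genes.

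Of 38 measured activators, adaptors and kinases on the inner side of integrins, 7 rose, 3 fell and 28 missed the threshold, at a median of 0.03. Of all genes 7.21% were higher and 5.92% lower. Above background on all arrays were 34 of the 38. With dim genes filtered out, 11 of this list were called, and 3039 of the 13147 genes left. The adaptor FYB1, which carries integrin activation downstream of antigen receptors, rose by 1.56 (SE 0.12, adjusted p = 0.000588 by limma), with 8.24, 7.98 and 8.24 on the SB216763 arrays, against 6.47 and 6.72 on the control arrays; its dim second probe, with a mean of 4.47, differed by 0.16, and the mean of both probes by 0.86. APBB1IP, known as RIAM, which recruits talin, rose by 0.60 (SE 0.10), and the kinase LYN by 0.53 (SE 0.08). Also called higher were FERMT3, the kindlin of blood cells, PARVG, the parvin of blood cells, and the actin linkers VCL and TNS3, by 0.35 to 0.38. ACTN1, alpha-actinin, fell by 0.41 (SE 0.07), and CIB1 by 0.45 (SE 0.09), while FERMT1 was called lower but was above background on no array. Talin (TLN1 and TLN2) was not among the calls. The number called was 4 without SB216763 replicate 1, 5 without SB216763 replicate 3, and 0 by limma without either control array, where 15 and 12 of the 38 had an unadjusted p under 0.05, as did 19.6% and 21.5% of all genes. The calls of FERMT3, PARVG, VCL, TNS3 and FERMT1 were lost when SB216763 replicate 1 or SB216763 replicate 3 was left out, and that of ACTN1 when SB216763 replicate 1 was.

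No integrin ligand was called. Of 32 measured ligands and counter-receptors limma called 0, and 0 had an unadjusted p under 0.05, against 26.5% of all genes; the median was -0.01, and 19 were above background on no array. The smallest p belonged to FGG, LAMB2, FGB and THBS1, and of these LAMB2 alone was above background, with a difference of 0.17 (SE 0.09, adjusted p = 0.265), or 0.08 with array weights. In the other settings the count was 0 as well, except for 1 gene, FGB, with array weights. Of 21 measured genes of hyaluronan and CD44's partners, 1 fell and 20 missed the threshold, at a median of -0.05. So 4.76% were called, where 13.1% of all genes were. MSN, moesin, an actin linker that CD44 binds, fell by 0.73 (SE 0.09, adjusted p = 0.00288 by limma), with 11.13, 10.91 and 10.99 on the SB216763 arrays, against 11.75 and 11.73 on the control arrays. RDX, radixin, differed in the other direction, by 0.23 (SE 0.10, adjusted p = 0.189 by limma), and was not called. NF2, merlin, differed by -0.26 (SE 0.08, adjusted p = 0.0836) and passed in 4 other settings, and the hyaluronan receptor HMMR by -0.32 (SE 0.13, adjusted p = 0.170), or by -0.19 without SB216763 replicate 2 and -0.20 with array weights. VCAN was above background on no array. The number called in this list was 2 without SB216763 replicate 2. MSN had adjusted p = 0.0817 without control replicate 1 and adjusted p = 0.0753 without control replicate 2 by limma.

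Of 14 tetraspanins with the integrin-associated protein CD47, 2 rose, 2 fell and 10 missed the threshold, at a median of -0.10, so 28.6% were called where 13.1% of all genes were. Of the 14, 12 were above background on all arrays. With dim genes filtered out, 5 of this list were called, and 3039 of the 13147 genes left. CD37, the tetraspanin of mature B cells, rose by 0.89 (SE 0.08, adjusted p = 0.000831 by limma) and CD47, the ligand of SIRP-alpha, by 0.82 (SE 0.13). CD151, which binds laminin-binding integrins such as those of ITGA6, fell by 0.66 (SE 0.08), averaging 8.95 ± 0.08 on the SB216763 arrays (SD, n = 3) and 9.60 ± 0.02 on the control arrays (SD, n = 2), and CD82 fell by 0.35 (SE 0.07). The call of CD82 was lost with each of SB216763 replicates 1 and 3 left out. Without either control array limma called 0 of the 14, while 7 and 5 had an unadjusted p under 0.05, where 19.6% and 21.5% of all genes had.

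Other receptors of leukocyte adhesion and homing were mostly higher where they were called. Of 24 measured, 7 rose, 1 fell and 16 missed the threshold, at a median of 0.08, where 7.21% of all genes were higher and 5.92% lower, and 10 were above background on no array. CD84, a homophilic receptor of the SLAM family, had 7.08, 7.07 and 7.44 on the SB216763 arrays, against 5.66 and 6.02 on the control arrays, which were not above background, so it was at least 2.03-fold higher (adjusted p = 0.00207 by limma). That bound sets the mean of the SB216763 arrays against the background of the control arrays. CD48, of the same family, rose by 1.09 (SE 0.10), ALCAM, the ligand of CD6, by 0.84 (SE 0.10) and PTPRC, the phosphatase CD45, by 0.73 (SE 0.10). The control values of CD48, 6.25 and 6.42, stood just above the backgrounds of those arrays, which were 6.19 and 6.17. Also higher were the selectin ligand SELPLG by 0.56, the chemokine receptor CXCR4 by 0.63 and PECAM1 by 0.60, whose second probe differed by 0.29; the call of PECAM1 was lost without SB216763 replicate 1, where 6 of the list were called. SPN, the sialomucin CD43, fell by 0.30 (SE 0.07, adjusted p = 0.0361), a call lost without SB216763 replicate 1 and without SB216763 replicate 3. Without either control array limma called 0 of the 24, while 9 and 8 had an unadjusted p under 0.05, as did 19.6% and 21.5% of all genes.

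**Figure D5:**
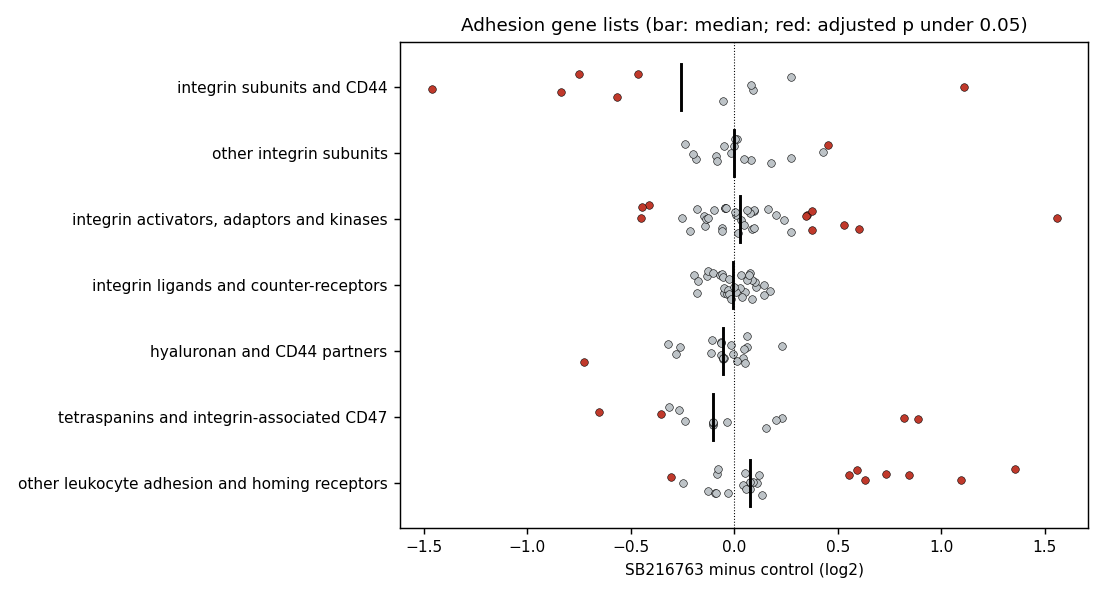
SB216763 minus control difference (log2, x axis) of every measured gene of the integrin and CD44 set and of 6 lists of related genes (rows); red points had an adjusted p under 0.05 by limma, grey points did not, black bars are medians. The integrin and CD44 set has its median at -0.26, and the lists theirs between -0.10 and 0.08.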

How the data were processed

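Total RNA of 5 arrays, 3 of RS4.11 cells with SB216763 and 2 controls, was labelled with a whole-transcript kit. The authors deposited 1 table of log2 expression values, made with Affymetrix Expression Console per the submitters' processing notes; the log2 scale was read from their range. Software version, summarisation and genome build: not given in the sources used here. Hence no coordinates are given for the probes; those printed with promoter sequences are RefSeq's, on its own build. No further normalization was applied.

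Of 33297 probes, 19460 named exactly 1 gene in the platform annotation, 1754 several and 12083 none; the first were used, 1 probe a gene. The test was limma 3.58.1 (R 4.3.3) with lmFit and eBayes, two-sided, with Benjamini-Hochberg adjustment over 18417 genes, and was tested on simulated data. The simulated noise was independent between arrays and drawn from the fitted variances. That check therefore cannot show how the p-values behave if the arrays are technical repeats. The number of arrays limits the precision. No label pairs the same-numbered arrays of the 2 groups, so the numbers were not taken to pair them. Their deviations from the group means correlated at -0.05 and -0.10. With 2 control arrays, whose deviations mirror each other, such values cannot settle whether the arrays were paired. Members and lists were chosen with earlier results of these data known. Named genes were the 10 genes, the 4 smallest p of each of 6 lists, and the 3 nearest profiles of 3 genes; others, among them the other called genes of the lists, were named after their values were seen. Left-out genes were not analysed here. As alternatives, dim genes were filtered out, arrays were quantile normalized or median centred, probes were averaged or all tested singly, the variance was given a robust trend, no moderation or array weights, the replicate number served as a block, and each array was left out.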

Additional observations from a re-analysis of the deposited data

How the results depend on the processing

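The 6 called genes (ITGA4, ITGA5, ITGA6, ITGB5, ITGB7 and CD44) were called in the same direction in every alternative except 3: no moderation, with 4 calls (ITGA4 and CD44 lost), and leaving out either control array. With each array left out in turn, the calls among the 10 genes ran from 0 to 6; each time they were 0, limma gave all 6 an unadjusted p under 0.05, as it gave 19.6% of all genes without control replicate 1 and 21.5% without control replicate 2. There the spread of the lone control array is taken from that of the SB216763 arrays. Of all genes 2418 were called, 251 without moderation, 4720 with array weights, and 0 to 2859 with each array left out. With the replicate number as a block, which is no known pairing, limma called 1830 genes and the same 6 of the 10. Among the 33 other called genes named from the related lists or as nearest profiles, 7 lost the call under the block (FERMT3, PARVG, VCL, TNS3, FERMT1, CD82 and SPN). Without moderation 21 lost it, without SB216763 replicate 1 9 did, and without SB216763 replicate 3 7 did. The called markers CSF3R, LYZ, TYROBP, BLNK, NKG7 and KRT18 were not followed through the alternatives. Of the related lists, against calls of 1, 10, 0, 1, 4 and 8 with all arrays, the other integrin subunits had 0 calls without moderation and up to 3 with array weights, and the activators and adaptors 2 without moderation, 5 under the block and 6 with all probes tested singly. The ligands had 1 with array weights. The hyaluronan genes had 0 without moderation, 2 with quantile normalization, centring or a variance trend and 3 with array weights. The tetraspanins had 2 without moderation and 7 with quantile normalization or a variance trend, and the homing receptors 0 without moderation. The causes of these shifts were not tested.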
